A study of Mus musculus with 3 samples.

Results

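The genes described here are 10 components of the machinery that takes a cell through G1 into S phase: the D cyclins Ccnd1, Ccnd2 and Ccnd3, their kinase partners Cdk4 and Cdk6, the inhibitors Cdkn1b, Cdkn2c and Cdkn2d, and the pocket proteins Rb1 and Rbl1. They were chosen by symbol, as a set of G1 entry genes, and all 10 were found, each at 1 locus, among the 24437 genes of the deposited tables. RNA sequencing had been done on 3 leukaemias that arose in the thymus of C57BL/6 strain Mb1-CreDPB mice. Here Cre, driven from the mb-1 (Cd79a) locus and so confined to B lineage cells, removes Spi1, which encodes the ETS factor PU.1, and the mice have no functional gene for its relative Spi-B. All 3 libraries carry this genotype and form 1 group, so no contrast of genotype or treatment could be made, and no control samples were analysed here. The age of the mice is not stated in the labels. The leukaemias are called 1 (Thy_853), 2 (Thy_854) and 3 (Thy_857). Nothing in the labels says in words that each thymus came from another mouse, so the SD over n = 3 measures the spread between these libraries.

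D cyclins are made in response to growth signals and bind CDK4 or CDK6, and the active kinases phosphorylate the retinoblastoma protein and its relatives, which releases E2F factors to switch on S phase genes. INK4 proteins, encoded here by Cdkn2c and Cdkn2d, bind CDK4 and CDK6 and keep the cyclin out, while the CIP/KIP protein of Cdkn1b chiefly inhibits the cyclin E and cyclin A kinases that act next. In mouse B cell development cyclin D3 is the D cyclin that pre-B cells need to expand, cyclin D2 serves the response of mature B cells to antigen, and cyclin D1 is scarce in most lymphocytes.

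Levels are in FPKM, that is fragments corrected for transcript length and library size, which allows levels of different genes to be ordered within a library. The tables give a 95% interval with each value. What its bounds cover is not stated, and as each comes from 1 library they do not hold differences between animals. For 4 members FPKM lay above its own interval in all 3 libraries, so its width is not the precision of FPKM. For the 9 members other than Ccnd1 this interval extended 0.866% to 5.31% to either side of its midpoint. Genes that mark the B lineage were abundant in all 3 libraries, with a median of 669, 500.1 and 455 FPKM in leukaemias 1, 2 and 3. T cell markers had medians of 16.8, 3.52 and 4.39 FPKM, and myeloid markers of 41.7, 31.6 and 11.7, so other cells also contributed RNA. Spi1 was listed at 11.6, 6.70 and 7.13 FPKM and Spib at 11.8, 14.6 and 9.60, values that do not check the deletions, because exons outside a deleted stretch also count.

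Ccnd3 was the most abundant of the 10 genes in every leukaemia and also the one that varied most among the 9 with FPKM of at least 1 throughout. It stood at 232 FPKM in leukaemia 1, 821 in leukaemia 2 and 647 in leukaemia 3, a mean of 566 ± 302 (SD, n = 3). Leukaemias 2 and 3 were thus high and leukaemia 1 low, with levels 3.53 and 2.78 times that of leukaemia 1. Ccnd3 lay at percentiles 97.6, 99.4 and 99.2 of all genes with FPKM of at least 1 in the same library. Its range over the leukaemias, 1.82 on the log2(FPKM + 1) scale, was wider than that of 97.9% of the 9300 genes with FPKM of at least 1 in all 3, whose median range was 0.38.

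In mm10 coordinates Ccnd3 lies on the plus strand at chr17:47505051-47599688. Its last 358 bases overlap Bysl, a ribosome assembly gene on the opposite strand, which was listed at 0 in all 3 leukaemias. The sources used here do not say whether fragments were assigned by strand, so the reads of this overlap cannot be attributed to either gene. The RefSeq table for GRCm38.p6, the assembly that mm10 names, holds sequences before 2 starts of Ccnd3, a distal one at the beginning of the locus and a proximal one inside it. The deposited FPKM is 1 value for the whole gene and does not separate them. The 250 bases before each start are shown because Ccnd3 carries the widest difference among the leukaemias. They lie at chr17:47504801-47505050 and chr17:47593217-47593466 and read 5′ to 3′ on the plus strand:

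Ccnd3, distal start: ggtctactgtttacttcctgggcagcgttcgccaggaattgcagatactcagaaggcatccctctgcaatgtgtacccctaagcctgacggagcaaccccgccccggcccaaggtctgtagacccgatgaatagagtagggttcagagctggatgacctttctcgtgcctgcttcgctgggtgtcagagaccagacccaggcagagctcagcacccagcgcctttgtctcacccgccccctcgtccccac

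Ccnd3, proximal start: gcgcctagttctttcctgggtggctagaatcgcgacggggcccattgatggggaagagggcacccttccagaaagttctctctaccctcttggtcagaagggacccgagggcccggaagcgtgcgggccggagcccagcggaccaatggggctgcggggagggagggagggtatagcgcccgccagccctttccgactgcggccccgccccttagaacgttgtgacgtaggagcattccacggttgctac

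Both windows were searched on both strands for E2F letters (TTTCCCGC, TTTGGCGC, TTTCGCGC or TTTGCCGC), the PU box core GAGGAA, the STAT letters TTCNNNGAA and the E box CACGTG bound by Myc. Neither window held any of them, so both are printed in lower case. Of 32851 RefSeq promoter windows of the same length, 1.86% held E2F letters, 23.3% the PU box core, 7.02% the STAT letters and 6.02% the E box. A match or its absence describes the letters of the window only.

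Ccnd2, unlike Ccnd3, was highest in leukaemia 1. It stood at 77.1, 39.5 and 37.5 FPKM in leukaemias 1, 2 and 3, a mean of 51.3 ± 22.3 (SD, n = 3). Leukaemia 1 was the high one here, at 1.95 and 2.06 times the levels of leukaemias 2 and 3, which lay close together. Ccnd2 lies at chr6:127125709-127151048 on the minus strand. An unnamed transcript on the other strand, 9330179D12Rik, overlaps 1660 bases of it and reached at most 0.303 FPKM.

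Ccnd1 was the lowest of the 10 genes, at 1.36, 0 and 0.709 FPKM. Its deposited intervals, 1.19 to 1.53, 0 to 0.00926 and 0.590 to 0.828, did not overlap, all at a very low level. That of leukaemia 2 belongs to a value of 0 and does not show this library to be apart. An exact 0 in these tables can be a failed estimate, and Ccnd1 is therefore only listed at 0 in leukaemia 2. The gene lies at chr7:144929931-144939925 on the minus strand and shares 818 bases with the neighbouring gene Oraov1, which stood at 13.9, 10.3 and 11.2 FPKM. How reads of the shared bases were assigned is not stated. Stroma and epithelium, which use cyclin D1 widely, were represented by 10 markers with summed FPKM of 46.7, 50.7 and 24.9, of which the adhesion gene Pecam1, also present on leukocytes, gave 41.9, 46.7 and 22.5. The collagen gene Col1a1 stood at 1.87, 1.42 and 0.772 FPKM and the epithelial gene Epcam at 0.440, 0.224 and 0.172, both highest in leukaemia 1. Others of the list did not share this, as Col3a1, at 1.79, 1.84 and 1.01 FPKM, was highest in leukaemia 2. The keratin gene Krt5, at 0.0484, 0.067 and 0.0919 FPKM, was highest in leukaemia 3. Of the thymic epithelial markers Foxn1 was listed at 0, 0.00544 and 0 FPKM and Psmb11 at 0.00795, 0.0206 and 0. The part of such cells in the Ccnd1 values was not tested.

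**Figure D1:**
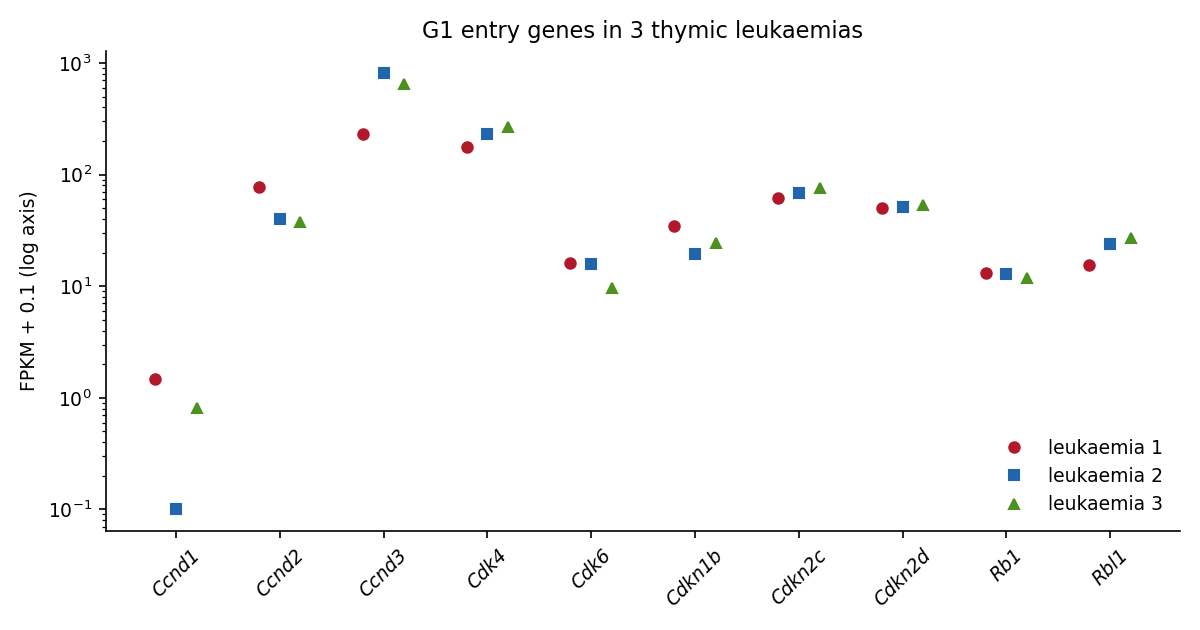
Level of each of the 10 genes in each leukaemia, as FPKM + 0.1 on a log axis, with 1 point per library. Ccnd3 is the highest gene in each library, from 232 FPKM in leukaemia 1 to 821 in leukaemia 2, and Ccnd1 is the lowest, while Cdkn2d and Rb1 form nearly flat rows.

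The make-up of the D cyclin pool therefore differed. Ccnd3 supplied 74.7%, 95.4% and 94.4% of summed D cyclin FPKM in leukaemias 1, 2 and 3, and Ccnd2 24.8%, 4.59% and 5.47%. Ccnd2 thus held a larger share in leukaemia 1 than in the other 2 libraries, which resembled each other. Summed over the 3 cyclins the pool came to 311, 860.1 and 685 FPKM. Within each library Ccnd3 exceeded Ccnd2 by 1.58, 4.34 and 4.07 on the log2(FPKM + 1) scale, a mean difference of 3.33 ± 1.52 (SD, n = 3; two-sided sign-flip permutation, exact p = 0.25). That p is the smallest which 3 libraries allow, and it was the same for each of the 7 ratios tested and after Benjamini-Hochberg adjustment over them, so no ratio could pass a threshold of 0.05. Without leukaemia 1 this mean was 4.21 and the mean Ccnd2 share 5.03% in place of 11.6%.

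**Figure D2:**
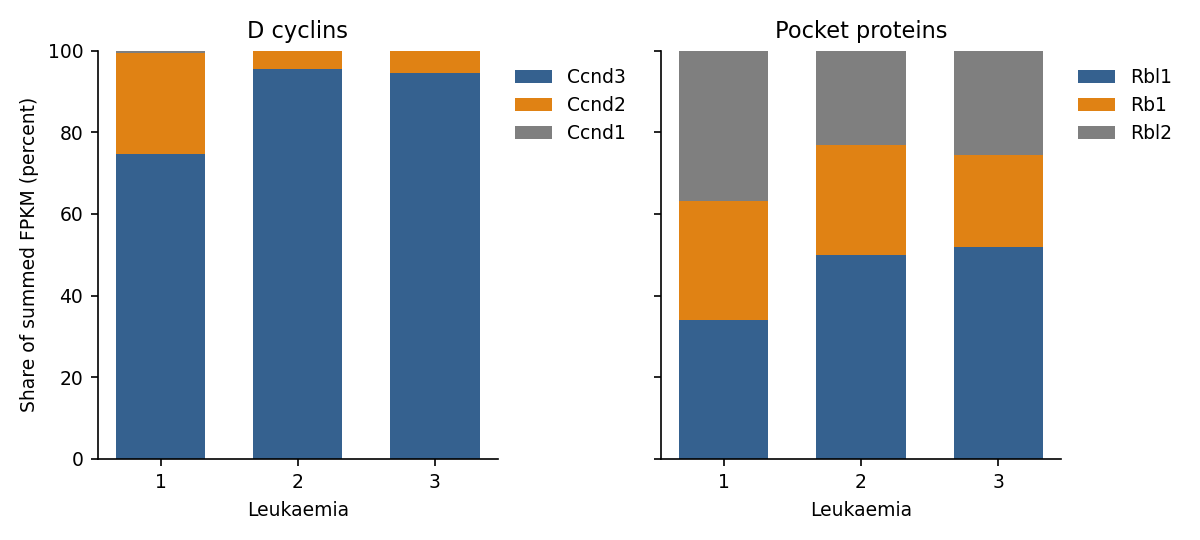
Share of each gene in the summed FPKM of the D cyclins (left) and of the pocket proteins Rbl1, Rb1 and Rbl2 (right), in percent, with 1 bar per leukaemia. Ccnd2 makes up 24.8% of the D cyclin bar of leukaemia 1 and about 5% in the others, where it is 4.59% and 5.47%, and the Rbl1 part is 34.1% in leukaemia 1 against 49.95% and 51.8%.

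Of the kinases, Cdk4 was far more abundant than Cdk6. Cdk4 stood at 176, 229.9 and 267 FPKM, a mean of 224 ± 45.6 (SD, n = 3), lowest in leukaemia 1 and highest in leukaemia 3. Cdk6, prominent in blood cell progenitors, stood at 16.2, 15.7 and 9.52 FPKM, a mean of 13.8 ± 3.70, with leukaemias 1 and 2 alike and leukaemia 3 lower. The difference of Cdk4 over Cdk6 was 3.37, 3.79 and 4.67 on the log2(FPKM + 1) scale, a mean of 3.94 ± 0.66 (n = 3; two-sided sign-flip permutation, exact p = 0.25). Cdk4 thus made up 91.6%, 93.6% and 96.6% of the FPKM of both kinases. Cdk4 lies at chr10:127063603-127067282 and Cdk6 at chr5:3343893-3531005, both on the plus strand.

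The deposited FPKM of Cdk4 lay above its interval in every library, at a steady 1.16 to 1.17 times the midpoint, so its level depends on which deposited value is read while the differences between leukaemias hardly do. The same held for Cdkn2d, at 1.15 to 1.16 times the midpoint, and to a smaller degree for Ccnd2 and Cdkn1b. Ccnd3 lay just below its lower bound in leukaemias 2 and 3, at 0.983 times the midpoint in each.

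Cdk4 and Rbl1 are shown with the 250 bases before their RefSeq starts. They were picked after the search, as the members with the most E boxes and with E2F letters. Cdkn2c and Cdkn2d, which had the same order over the leukaemias, held neither. The windows are chr10:127063285-127063534, read on the plus strand, and chr2:157204535-157204784, read on the minus strand. Capitals mark matches to the letters searched in Ccnd3, which are E boxes in Cdk4 and E2F letters in Rbl1:

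Cdk4: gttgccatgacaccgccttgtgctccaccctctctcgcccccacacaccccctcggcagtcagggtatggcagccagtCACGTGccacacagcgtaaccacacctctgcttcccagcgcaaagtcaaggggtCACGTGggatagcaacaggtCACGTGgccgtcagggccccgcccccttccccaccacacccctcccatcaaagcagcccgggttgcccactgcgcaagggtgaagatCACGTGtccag

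Rbl1: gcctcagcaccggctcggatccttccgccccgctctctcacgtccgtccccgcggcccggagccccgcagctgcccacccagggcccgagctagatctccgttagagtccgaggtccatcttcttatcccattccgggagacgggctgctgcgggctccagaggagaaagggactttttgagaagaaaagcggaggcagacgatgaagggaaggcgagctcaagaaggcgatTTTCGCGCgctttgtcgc

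The Cdk4 window held 4 E boxes, which begin 172, 118, 98 and 11 bases before the RefSeq start, which lies upstream of the Cdk4 start in the deposited tables, and Rbl1 held TTTCGCGC 18 bases before it. Of the other members in the RefSeq table, which matched 7 of the 10 genes, Cdk6 held 1 E box and the inner of the 2 Cdkn2c windows 1 PU box core, and Cdkn1b and Cdkn2d held no searched letters. Ccnd1, Ccnd2 and Rb1 were not matched.

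The 3 inhibitors among the members varied less than the cyclins. Cdkn2c stood at 61.5, 68.8 and 75.7 FPKM, a mean of 68.7 ± 7.09 (SD, n = 3), and Cdkn2d at 50.1, 50.7 and 53.4, a mean of 51.4 ± 1.77. Both were thus close to level across the leukaemias, and Cdkn2d, with a range of 0.09 on the log2(FPKM + 1) scale, varied more than only 5.32% of expressed genes. Cdkn2c exceeded Cdkn2d in all 3 libraries, and Cdkn2d minus Cdkn2c was -0.29, -0.43 and -0.50 on that scale, a mean of -0.41 ± 0.10 (n = 3; two-sided sign-flip permutation, exact p = 0.25). With interval midpoints in place of FPKM the share of Cdkn2c in the pair was 60.9% rather than 57.1%. Cdkn2c lies at chr4:109660876-109666756 and Cdkn2d at chr9:21288464-21291209, both on the minus strand.

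Cdkn1b was the most variable inhibitor and, like Ccnd2, was highest in leukaemia 1. It stood at 34.7, 19.2 and 24.1 FPKM, a mean of 26.0 ± 7.94 (SD, n = 3), and lies at chr6:134920401-134925525 on the plus strand. Cdkn1b was below Cdkn2d in every library, by a mean difference of -0.996 ± 0.43 on the log2(FPKM + 1) scale (n = 3; two-sided sign-flip permutation, exact p = 0.25). The FPKM of these 3 inhibitors summed to 146, 139 and 153, a narrow span beside the 311 to 860.1 of the D cyclins. Cdkn1a, a CIP/KIP gene that is not a member, was left out of this sum. It varied more, at 59.0, 135 and 81.7 FPKM. Summed D cyclins exceeded summed inhibitors by 1.08, 2.62 and 2.15 on the log2(FPKM + 1) scale, a mean of 1.95 ± 0.79 (n = 3; two-sided sign-flip permutation, exact p = 0.25). Leukaemia 1 thus had the lowest ratio of D cyclin transcripts to those of these 3 inhibitors.

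Of the pocket proteins, Rb1, the retinoblastoma gene, was level at 13.1, 12.8 and 11.7 FPKM, a mean of 12.5 ± 0.727 (SD, n = 3). Its relative Rbl1, itself a known E2F target, stood at 15.3, 23.6 and 26.8 FPKM, a mean of 21.9 ± 5.91, low in leukaemia 1 and higher in both others. Rb1 minus Rbl1 was -0.22, -0.84 and -1.13 on the log2(FPKM + 1) scale, a mean of -0.73 ± 0.47 (n = 3; two-sided sign-flip permutation, exact p = 0.25). Rbl2, the relative known from resting cells, ran the other way, highest in leukaemia 1 at 16.5 FPKM against 10.9 and 13.2. Rbl1 thus made up 34.1%, 49.95% and 51.8% of the FPKM of the 3 pocket protein genes and Rbl2 36.8%, 23.0% and 25.5%. Rb1 lies at chr14:73195502-73325791 and Rbl1 at chr2:157145894-157204534, both on the minus strand. The receptor gene Lpar6 lies within Rb1 on the other strand and stood at 11.3, 7.98 and 4.97 FPKM.

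Ordered by mean FPKM, the 10 genes ran Ccnd3, Cdk4, Cdkn2c, Cdkn2d, Ccnd2, Cdkn1b, Rbl1, Cdk6, Rb1 and Ccnd1. Ranges over the leukaemias did not overlap between Cdk4 and Cdkn2c, Cdkn2c and Cdkn2d, Ccnd2 and Cdkn1b, or Rb1 and Ccnd1. They overlapped between the other 5 neighbours. Ccnd3 and Cdk4 overlapped only because leukaemia 1 held 232 FPKM of Ccnd3 while leukaemia 3 held 267 of Cdk4, and within each library Ccnd3 was the higher. Cdkn2d and Ccnd2, with means of 51.4 and 51.3, could not be ordered. Nor could Cdkn1b and Rbl1, since Cdkn1b had the higher mean but was the higher in only 1 of 3 leukaemias. The order of Rbl1 over Cdk6, and that of Cdk6 over Rb1, each held in only 2 of 3 leukaemias and was not settled either.

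The leukaemias were next compared in pairs. A gene counted as higher or lower in a pair if log2(FPKM + 1) differed by 1 or more, FPKM was 1 or more on either side, and the 95% intervals were apart. With 1 library on each side these differences have no replicate check, and no p-value is given. Ccnd1 was higher and Ccnd3 lower in leukaemia 1 than in leukaemia 2, 1 of 10 members in each direction, where 5.56% of the 10295 genes tested were higher and 2.6% lower. The Ccnd3 difference was -1.82, below all but 0.942% of tested genes, and that of Ccnd1 1.24, set by a value listed at 0. Against leukaemia 3, Ccnd2 was higher in leukaemia 1 by 1.02 and Ccnd3 lower by a difference of -1.47, again 1 of 10 members each way, beside 6.75% and 3.22% of 10265 genes. Ccnd2 lay just under the threshold against leukaemia 2, at 0.95. Between leukaemias 2 and 3 none of the 9 members tested was higher or lower, where 2.96% and 1.72% of 10047 genes were, and the widest difference was 0.66 for Cdk6. The median member difference was 0.01, 0.03 and -0.07 for leukaemias 1 minus 2, 1 minus 3 and 2 minus 3, against 0.02, -0.01 and -0.06 over all genes tested. The members as a group were thus centred like other genes.

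**Figure D3:**
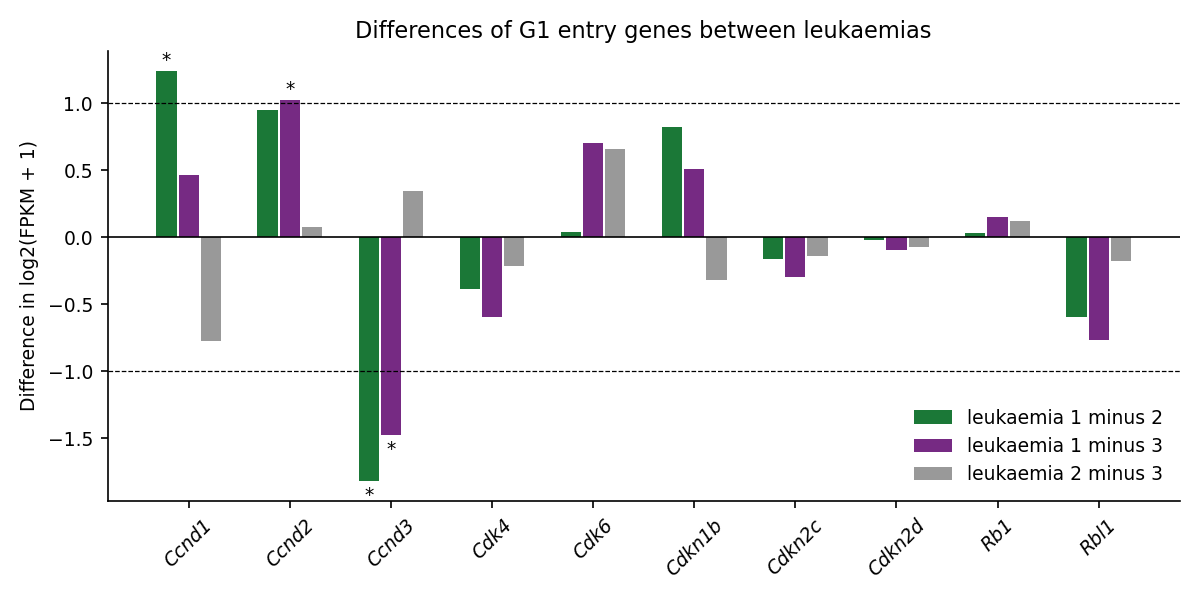
Difference in log2(FPKM + 1) between each pair of leukaemias for the 10 genes, with dashed lines at 1 and -1 and an asterisk where the difference met all criteria. Ccnd3 reaches -1.82 and -1.47, Ccnd2 passes 1 against leukaemia 3 alone, and Cdkn2c, Cdkn2d and Rb1 stay near 0.

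Members below the threshold fell into 2 directions. Cdk4, Cdkn2c, Cdkn2d and Rbl1 had their lowest value in leukaemia 1 and their highest in leukaemia 3, as did 28.9% of the 9300 expressed genes. Rbl1 differed by -0.59 and -0.77 between leukaemia 1 and leukaemias 2 and 3, and Cdk4 by -0.38 and -0.60. Cdkn1b, at 0.82 and 0.51, and Cdk6, at 0.04 and 0.71, lay on the other side. All of these intervals were apart except that of Cdk6 between leukaemias 1 and 2 and those of Cdkn2d in each pair.

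Genes that work downstream had their lowest values in leukaemia 1. All 14 E2F target genes had their lowest value in leukaemia 1, where 41.3% of expressed genes did, and 12 of them their highest in leukaemia 3, where 39.8% did. By the criteria 2 of 14 were lower in leukaemia 1 than in leukaemia 2 and 5 of 14 lower than in leukaemia 3, beside 2.6% and 3.22% of all genes tested. None was higher, and none differed between leukaemias 2 and 3. The helicase subunit gene Mcm2, at 57.9, 132 and 123 FPKM, and the origin loading factor gene Cdc6, lowest of the list at 5.13, 12.5 and 12.5, differed in both comparisons. Against leukaemia 3 this was also so for Pcna, the sliding clamp of replication, at 209, 333 and 429 FPKM, for Mcm3 at 65.8, 124 and 142, and for the reductase gene Rrm1 at 60.9, 98.8 and 126. Rrm2 and Mcm7, the other abundant members, reached 163 ± 51.4 and 152 ± 46.5 FPKM. The median list difference was -0.65 for leukaemia 1 minus 2 and -0.93 for 1 minus 3.

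The other G1 and S phase entry genes moved less evenly. Of 19 tested, 1 was lower in leukaemia 1 than in leukaemia 2 and 4 of 19 lower than in leukaemia 3, beside the same 2.6% and 3.22% of all genes, so that the first count is a single gene. None was higher, and none of 18 differed between leukaemias 2 and 3. Cdkn1a, the CIP/KIP inhibitor induced by p53, stood at 59.0, 135 and 81.7 FPKM, with a difference of -1.18 for leukaemia 1 minus 2. Lower in leukaemia 1 than in leukaemia 3 were the cyclin genes Ccna2 at 63.3, 74.5 and 132 FPKM, Ccne1 at 9.39, 16.8 and 20.8 and Ccne2 at 7.002, 12.1 and 17.6, and the repressor E2f8 at 10.9, 16.0 and 25.3. E2f4, the E2F of resting cells that partners pocket proteins, was the third most abundant of this list at 67.3 ± 11.6 FPKM. Cdkn1c, a CIP/KIP gene of embryonic tissues, was the lowest at 0.240 ± 0.101.

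Mitotic genes showed the same lowest library. All 8 had their lowest value in leukaemia 1 and their highest in leukaemia 3, an order found in 28.9% of expressed genes. Only the chromosomal passenger kinase Aurkb met the criteria, 1 of 8 lower in leukaemia 1 than in leukaemia 3, beside 3.22% of all genes, and 0 of 8 in the other pairs, at 36.5, 46.0 and 74.3 FPKM. Top2a, the topoisomerase of mitotic chromosomes, stood at 88.4, 143 and 177 FPKM, Ccnb2 at 67.8, 74.3 and 112 and Bub1, the lowest, at 9.90, 12.0 and 19.2.

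**Figure D4:**
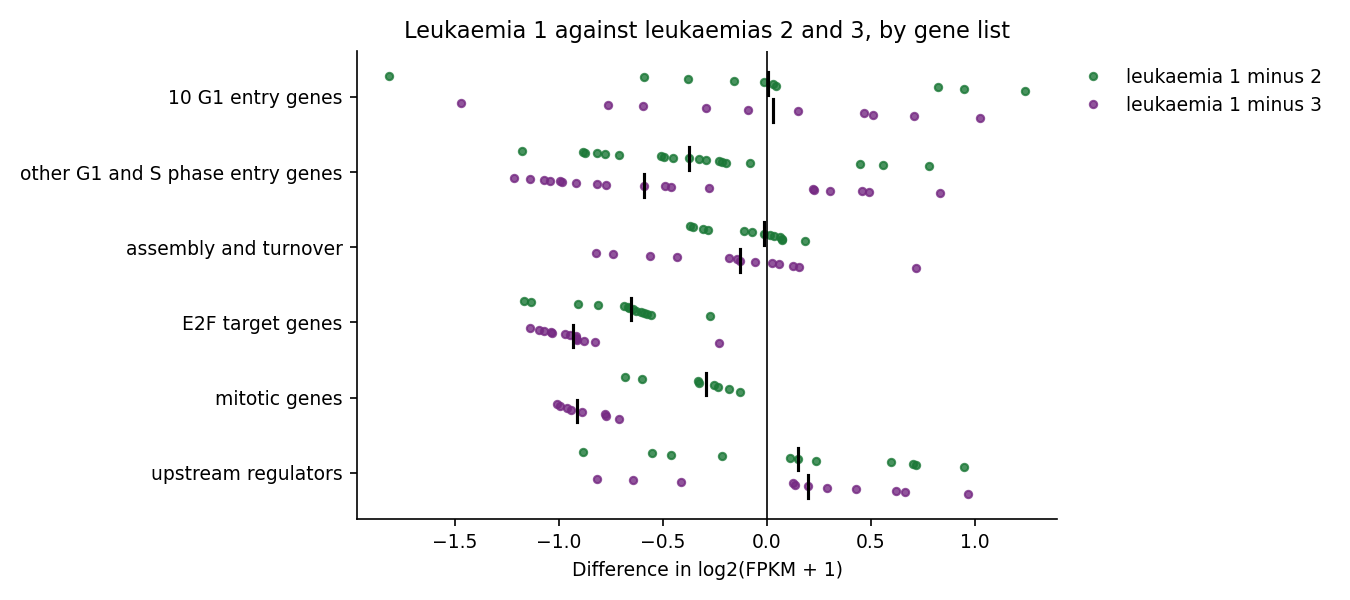
Difference in log2(FPKM + 1) of leukaemia 1 against leukaemias 2 and 3 for the 10 genes and for 5 lists of related genes, with 1 point per tested gene and a black line at the median. E2F target genes lie below 0 throughout with medians of -0.65 and -0.93, whereas the 10 genes spread to both sides with medians of 0.01 and 0.03.

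Assembly and turnover genes and upstream regulators moved in both directions. None of 13 tested assembly and turnover genes, which load the kinases, activate them or degrade cyclins and Cdkn1b protein, met the criteria in any pair. Hsp90ab1, the chaperone that matures CDK4 with Cdc37, stood at 1188 ± 227 FPKM, Cks1b, a cofactor of Cdkn1b degradation, at 149 ± 44.2, Cdc37 at 112 ± 8.79 and the deubiquitinase gene Usp2, the lowest, at 0.312 ± 0.209. None of 11 upstream regulators met them either. For leukaemia 1 minus 2, Bcl6 differed most, by 0.95, and Myc by -0.89. For 1 minus 3 the widest difference was 0.97, for Foxo3. Bcl6 stood at 16.1, 7.89 and 10.1 FPKM. Over all genes tested, 5.56% were higher and 2.6% lower in leukaemia 1 than in leukaemia 2, and 6.75% and 3.22% than in leukaemia 3. Between leukaemias 2 and 3, 2.96% were higher and 1.72% lower in leukaemia 2. Il7r, the receptor of the cytokine that drives early B cell growth, stood at 139, 84.2 and 87.6 FPKM, highest in leukaemia 1. Myc, which activates Cdk4 and Ccnd2 in several cell types, was lowest there at 35.8, 67.0 and 63.9. Ikzf1, which encodes Ikaros, was at 70.4 ± 8.77 FPKM and Foxo3, of a family that activates Cdkn1b, the lowest of this list at 13.5, 7.92 and 6.41.

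Markers of other cells also differed between the leukaemias, with T and NK cell markers highest in leukaemia 1 and myeloid and globin markers lowest in leukaemia 3. Of all genes tested, 5.56% were higher and 2.6% lower in leukaemia 1 than in leukaemia 2, and 6.75% and 3.22% than in leukaemia 3. In leukaemia 2, 2.96% were higher and 1.72% lower than in leukaemia 3. Set against leukaemia 2, 9 of 10 T cell markers were higher in leukaemia 1, as were 9 of 10 against leukaemia 3, while Lck, at 77.1, 165 and 75.6 FPKM, was lower than in leukaemia 2. Summed T cell marker FPKM was 226, 197 and 113, and no T cell marker was listed at 0. Most of this sum was Lck in leukaemias 2 and 3, so it does not follow the other T cell markers. All 4 tested NK cell markers were higher than in leukaemia 2 and 3 of 4 higher than in leukaemia 3, with sums of 75.9, 19.1 and 21.8 FPKM and none at 0. None of 9 myeloid markers met the criteria against leukaemia 2 and 4 of 8 were higher than in leukaemia 3. Of 7 tested, 4 were also higher in leukaemia 2 than in leukaemia 3, among them the neutrophil gene S100a8 at 117, 92.1 and 13.8 FPKM. Myeloid markers summed to 374, 302 and 99.8 FPKM over 9 genes with none at 0. All 4 globin markers were higher in leukaemias 1 and 2 than in leukaemia 3, such as Hbb-b1 at 39.2, 54.95 and 7.87 FPKM, and 1 of 4, Hba-a1, was lower in leukaemia 1 than in leukaemia 2 and listed at 0 in leukaemia 3. The 5 dendritic markers summed to 4.46, 1.49 and 2.45 FPKM with none at 0. B lineage markers summed to 8623, 7480 and 5654 FPKM, of which only the adaptor gene Blnk, at 53.9, 14.6 and 37.9, met the criteria. In RNA of whole thymus, fewer cells of a type and less RNA per cell cannot be told apart, and the part of T, NK or myeloid cells in the Ccnd2, Ccnd3 and Cdkn1b differences was not tested.

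Genes most like the 3 members of widest range were sought by the distance between profiles of log2(FPKM + 1), centred on their mean over the 3 leukaemias, among genes of 0.5 to 2 times the same mean FPKM. For Ccnd2 these were Wls at 41.4, 21.6 and 20.2 FPKM, Snora65 and Pnrc1 among 2266 candidates, at distances of 0.03, 0.04 and 0.05. Ccnd1 was nearest to Mks1 at 1.27, 0.0616 and 0.916 FPKM, Prrg4 and Mtcl1 among 1323, at distances of 0.16, 0.17 and 0.23. For Ccnd3 the nearest of 133 candidates was Ldha, a glycolytic enzyme gene, at 179, 353 and 374 FPKM, followed by Ranbp1 and Hnrnpab, and their distances of 0.60, 0.78 and 0.80 were far greater. No gene of like abundance thus came as close to Ccnd3 as the nearest genes came to Ccnd2 or Ccnd1. Its candidates were also far fewer and its range wider, and distances were not scaled for either. With 3 libraries these are descriptions of level.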

How the data were processed

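RNA of homogenised leukaemic thymuses had been extracted after lysis of red cells, and libraries were made by standard Illumina methods, per the labels' protocols. The submitters' processing notes name build mm10 and, in no stated order or setting, Cuffdiff 2.1.1, Cufflinks, TopHat2 2.0.9 and Trim Galore 0.2.8.1. The deposited values are FPKM with 95% bounds per gene, per the file headers. The depth in fragments is unknown, and FPKM summed to 430787, 415638 and 423979. No count test was used.

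Of 25020 rows per table, 26 whose symbol had become a date were left out, and FPKM was summed over loci of a symbol. Each start was raised by 1, after which 4 of 10 members began exactly at their GENCODE gene. All member rows had status OK. Members and lists were chosen with earlier results of these data known. Named genes were the members, the 3 highest, the lowest and the differing genes of each pathway list, and the 3 nearest profiles of the 3 widest members. Bcl6 was named for its difference. Emr1 was not analysed here, and 1 erythroid marker is not reported here. Shares used FPKM, and differences and ratios log2(FPKM + 1). Ratios were tested over libraries by exact sign-flip permutation. Alternatives were other pseudocounts, filters, thresholds and scalings, interval midpoints, only OK rows, and each library left out. Python 3.11.15, numpy 2.4.6, pandas 2.3.3 and matplotlib 3.10.9 were used.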

Additional observations from a re-analysis of the deposited data

How the results depend on the processing

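No contrast between groups was possible because the 3 libraries form 1 group, and the ratios compared genes within a library. When a log2 difference of 2 was required, members that differed numbered 0 for leukaemias 1 and 2 and 0 for 1 and 3, in place of 2 each. At 0.58 they numbered 5 for 1 and 2, 5 for 1 and 3 and 1 for 2 and 3, where Cdk6 was added. The share over all genes was not counted at 2 or at 0.58, so these counts cannot be read as many or few. When FPKM had to reach 5, 1 member was left between 1 and 2, since Ccnd1 fell below the filter. Interval midpoints gave a Cdkn2c share of 60.9% and a Cdkn2d mean of 44.4 FPKM, as FPKM lay above its own interval. Ccnd3 was called in both pairs under the other pseudocounts, scalings and filters tried. No ratio changed sign with other pseudocounts, interval midpoints, only OK rows or each library left out. Pathway and marker counts were repeated only with FPKM of at least 5 and with median ratio scaling, where they stayed within 1.5 times. How they move with the threshold of difference was not tested. Only OK rows changed nothing for the members, whose rows were all OK. With 3 libraries of unknown depth the precision across animals is limited by their number, and Ccnd1 did not exceed 1.36 FPKM.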
